A study of Mus musculus with 20 samples.

Results

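Asparagine synthetase (Asns) and 9 further genes of the amino acid response were followed through 20 single cells of the mouse inner cell mass. The members were fixed by name: Asns, the transcription factor gene Atf4, the stress-induced genes Trib3, Ddit3 and Chac1, the serine synthesis genes Psat1, Phgdh and Psph, and the growth-restraining genes Sesn2 and Ddit4. All 10 had at least 1 probe set named for them, 20 probe sets in all, out of 18193 genes with a named probe set, and each gene was read from its brightest probe set. Asns was chosen by its levels over these same 20 cells, with the other members taken by name as genes of its pathway, so its level, its spread and its difference between cells are a description. A variance test over all measured genes includes Asns, and its outcome for Asns supports nothing here.

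The cells came from C57BL/6 blastocysts at embryonic day 3.5, 1 cell per Affymetrix array, and formed 1 group with no treatment or genotype comparison. Per the series design, 55 cells were picked, and a PCR screen found Oct4 (Pou5f1) without Cdx2, a trophectoderm gene, in 50 of them. The labels do not tie cells to embryos, so cells may share an embryo, and the spread between cells includes that of lysis and amplification. Levels are log2(intensity + 8.49), where the added constant is the 25th percentile of intensity of the median array. The lowest possible level is 3.25. A gene was called above the floor in a cell when it exceeded the 95th percentile of 163 probe sets of tissue-specific, olfactory and vomeronasal genes on that array. The floor lay between 6.57 and 7.62, and the 9751 genes above it in at least 3 cells are called measured. All members except Ddit4 were measured.

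When amino acids run short, uncharged transfer RNA activates the kinase GCN2 (Eif2ak4), which phosphorylates the translation factor eIF2. General translation falls, while the ATF4 protein is made more efficiently from its messenger RNA. ATF4 then binds composite C/EBP-ATF elements and induces genes that make, import or charge amino acids, together with stress genes such as Ddit3 (CHOP) and Trib3. Asns, which makes asparagine from aspartate and glutamine, is a classical target of this pathway. ATF4 is controlled largely at translation, so the level of its messenger RNA is not a measure of its activity.

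The inner cell mass at this stage holds precursors of epiblast and of primitive endoderm, and 1 marker of each split the 20 cells. Fgf4, a growth factor gene of the epiblast, was above the floor in 10 cells, and Gata4, an endoderm transcription factor gene, in the other 10 (no cell had both or neither). They are called Fgf4-positive cells (1, 2, 7, 9, 12, 13, 14, 16, 18 and 19) and Gata4-positive cells (3, 4, 5, 6, 8, 10, 11, 15, 17 and 20). The classes come from the same arrays, so differences between them are a description too. Nanog was 12.17 ± 0.16 (SD, n = 10 cells) in the Fgf4-positive cells and 7.89 ± 2.83 in the Gata4-positive cells, and Gata6 was 6.47 ± 2.24 and 11.55 ± 0.40. Other markers were shared: Nanog was above the floor in 7 Gata4-positive cells and Gata6 in 4 Fgf4-positive cells. In cell 6 Gata4 was close to the floor (7.37 against 7.04), with Nanog at 11.83. Pou5f1 was above the floor in all 20 cells. Cdx2, absent by the PCR screen, was above the floor in 17 cells, close to it (7.37 ± 0.44 in Fgf4-positive and 7.47 ± 0.25 in Gata4-positive cells). Between 5975 and 7809 genes per cell were above the floor, with medians of 7327 in Fgf4-positive and 6904 in Gata4-positive cells. The median deposited intensity was lowest in cell 19 and at least 25.6 in each other cell. Precision is limited by there being 20 arrays.

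Asns was high and even in all 10 Gata4-positive cells and lower and uneven in the Fgf4-positive cells. In the Gata4-positive cells the lowest level was 12.01, the median 12.52 and the highest 12.85. In the Fgf4-positive cells the lowest was 5.87, the median 10.62 and the highest 12.29. Asns was under the floor in cells 9 and 12 (5.88 and 5.87), which had deposited intensities of 46.6 and 52.4, against 341 or more in the other 18 cells. Cells 2 and 19 were next, at 8.68 and 8.84. Cell 16, at 12.29, was the only Fgf4-positive cell to reach the range of the Gata4-positive cells, and its Gata6 level of 7.93 lay outside theirs (10.63 to 11.89).

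The mean Asns level was 12.47 ± 0.27 (SD, n = 10) in Gata4-positive and 9.59 ± 2.23 in Fgf4-positive cells, a difference of 2.88 on the log2 scale. That difference is larger than the SD of either class. Raising values under the floor to the floor gave 2.68, and the difference was 1.96 without cells 9 and 12, and 3.19 without cell 16. Among the 9751 measured genes, 0.728% were higher in the Gata4-positive cells by as much. The SD of Asns was 8.27 times larger in the Fgf4-positive than in the Gata4-positive cells, and 0.123% of measured genes had a ratio as high, Asns included. Cells 9 and 12, under the floor, are part of that spread, and the ratio was not taken without them. In the Gata4-positive cells 10.1% of measured genes had an SD no larger than that of Asns. The other Asns probe set tracked the brightest (r = 0.99 over 20 cells), was above the floor in the same number of cells, 18, and differed by 3.22 between the classes. Its name carries the Affymetrix suffix for probes that may match other transcripts, while that of the brightest does not.

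Against the number of genes above the floor Asns had r = -0.11 over 20 cells (rho = -0.17), and 0.33 within the Fgf4-positive cells. Against the median intensity of the array it had r = 0.18 (rho = -0.20). The mean correlation of a cell with the other cells, from 0.593 to 0.675, moved more with Asns (r = -0.36, rho = -0.57), and was lowest in Gata4-positive cells. Within the Fgf4-positive cells that r was -0.0073. Of 12 trophectoderm markers, Krt7, Elf5, Gata3 and Atp12a were above the floor in 0 cells, and 8 were measured. Cdx2 was above the floor in 17 cells, Tfap2c and Tead4 in 13 each, Krt8 and Eomes in 9 each, Lgals3 in 5 and Krt18 in 3. Hand1 read high in all 20 (13.66 ± 0.08 in Fgf4-positive and 13.73 ± 0.07 in Gata4-positive cells). The mean level of the list ranged from 5.45 to 7.15 in Fgf4-positive and from 6.20 to 7.04 in Gata4-positive cells, with r = -0.06 with Asns over 20 cells and r = -0.80 within the Gata4-positive cells. Of 8 oocyte markers, 3 (Zp1, Bmp15 and Mos) were above the floor in 0 cells. The mean of that list ranged from 5.52 to 6.13 and from 4.84 to 5.56 in Fgf4-positive and Gata4-positive cells (r = -0.59 with Asns). Zp3, an egg coat gene of that list, was above the floor in 8 Fgf4-positive and 0 Gata4-positive cells. The part of these lists and array measures in the Asns difference was not tested.

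The promoter window of Asns holds a match to the core of the composite C/EBP-ATF element close to the start of transcription, and those of 2 other members hold one too. The windows below run from 250 bases before to 50 bases after the annotated start, from RefSeq on GRCm38.p6, 5′ to 3′ on the strand of the gene. Asns lies at chr6:7693160-7693459 (minus strand), Chac1 at chr2:119350992-119351291 (plus strand) and Trib3 at chr2:152344011-152344310 (minus strand). They are shown because these 3 genes share the motif and had different patterns over the cells. Capitals mark the match to TGATGNAA or its reverse complement TTNCATCA.
Asns: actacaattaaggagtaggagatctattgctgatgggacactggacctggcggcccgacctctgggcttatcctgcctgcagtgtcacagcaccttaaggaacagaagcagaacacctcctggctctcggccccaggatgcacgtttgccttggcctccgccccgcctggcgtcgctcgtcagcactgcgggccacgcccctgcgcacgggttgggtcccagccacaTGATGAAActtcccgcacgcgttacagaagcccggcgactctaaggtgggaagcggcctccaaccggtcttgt
Chac1: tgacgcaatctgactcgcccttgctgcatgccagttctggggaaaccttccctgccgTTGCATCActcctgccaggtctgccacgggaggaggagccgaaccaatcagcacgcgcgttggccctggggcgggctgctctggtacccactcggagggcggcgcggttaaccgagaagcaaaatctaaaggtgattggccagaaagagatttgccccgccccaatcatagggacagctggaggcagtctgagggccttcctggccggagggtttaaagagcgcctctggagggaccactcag
Trib3: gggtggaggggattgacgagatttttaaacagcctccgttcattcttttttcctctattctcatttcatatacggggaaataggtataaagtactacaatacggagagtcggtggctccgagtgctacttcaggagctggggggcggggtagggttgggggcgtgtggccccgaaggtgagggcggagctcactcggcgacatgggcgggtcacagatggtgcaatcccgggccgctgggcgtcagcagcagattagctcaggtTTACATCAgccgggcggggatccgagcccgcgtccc
In Asns the match begins 23 bases before the start, in Chac1 193 bases before it, and in Trib3 at base 15 of the transcript. The motif was searched on both strands, and each of these windows holds 1 match. It was found in 3 of the 10 members and in 4.51% of all 27025 genes with a window. The windows of the other 7 members do not hold these letters, which says nothing of elements elsewhere in those genes. Elements with other letters were not searched.

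Atf4, the activator itself, was present in every cell and did not follow Asns over the 20 cells (r = -0.17). Within the Gata4-positive cells r was 0.38, and within the Fgf4-positive cells -0.01. In the Fgf4-positive cells its lowest level was 10.58, its median 11.40 and its highest 12.09. In the Gata4-positive cells these were 9.81, 11.14 and 12.13, so the classes overlapped throughout. The means were 11.42 ± 0.45 and 11.11 ± 0.67 (SD, n = 10 each), a difference smaller than either SD. Cells 9 and 12, without Asns above the floor, had Atf4 at 11.93 and 11.32, above its mean of 11.27 over 20 cells. Of 2 other Atf4 probe sets, 1 was above the floor in 20 cells and had r = 0.89 with the brightest, and 1 was above it in 0 cells.

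The stress-induced targets were found in few cells, in both classes. Trib3, a pseudokinase gene that restrains AKT and ATF4, was above the floor in 4 cells, 2 of each class. These were cells 1 (7.92), 2 (7.59), 4 (7.99) and 6 (7.10), and Asns ranged among them from 8.68 to 12.63. Cells 2 and 6 passed their floors (7.44 and 7.04) only narrowly. Ddit3, which encodes the pro-apoptotic factor CHOP, was above the floor in 8 cells, 5 Fgf4-positive and 3 Gata4-positive. Its highest level was 8.91, in cell 6. Cell 9, with Asns under the floor, had Ddit3 at 7.54. Chac1, which encodes a glutathione-degrading enzyme, read between 6.27 and 7.25 in all 20 cells (SD 0.21), next to the floor. It was above the floor in 6 cells, or in 19 with a floor set from olfactory and vomeronasal receptors alone, so its detection rests on the floor.

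The serine synthesis genes split into 1 even gene and 2 uneven ones. Phgdh, Psat1 and Psph encode the 3 successive enzymes that make serine from a glycolytic intermediate. Psat1 was above the floor in 20 cells, with a lowest level of 10.32, a median of 11.17 and a highest of 11.46 in Fgf4-positive cells. In Gata4-positive cells these were 9.60, 10.43 and 11.27. Its means were 11.05 ± 0.37 and 10.45 ± 0.57 (SD, n = 10 each), higher in the Fgf4-positive cells, the opposite order to Asns, with overlapping ranges. Its other probe set gave the same order (11.08 ± 0.32 and 10.21 ± 0.68).

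Phgdh was above the floor in 11 cells, 5 Fgf4-positive and 6 Gata4-positive, and each of its other probe sets was above it in 11 cells too. Its level ranged from 5.60 to 10.35, with means of 7.37 ± 1.80 and 7.86 ± 1.67. All 4 Phgdh probe set names carry the suffix described for the other Asns probe set. Psph was above the floor in 13 cells, 6 and 7 of the classes, with means of 7.59 ± 2.68 and 8.05 ± 1.68. Asns was between 8.68 and 12.85 in the 13 cells with Psph and between 5.87 and 12.75 in the 7 without, and cells 9 and 12 were among the latter.

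Sesn2 and Ddit4 encode inhibitors of the growth-promoting kinase complex mTORC1. Sesn2 was either clearly on or off, above the floor in 13 cells (7.38 to 10.06) and no higher than 5.88 in the other 7. The 13 were 6 Fgf4-positive and 7 Gata4-positive cells. Its means were 6.75 ± 2.12 and 7.55 ± 2.73, a difference smaller than either SD. Cell 12, without Asns, had Sesn2 at 8.84. The other Sesn2 probe set, above the floor in 9 cells, had r = 0.21 with the brightest, so the probe sets of Sesn2 disagreed. Ddit4 was above the floor in 1 cell, cell 16 (7.50), which was also the Fgf4-positive cell with the highest Asns.

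**Figure D1:**
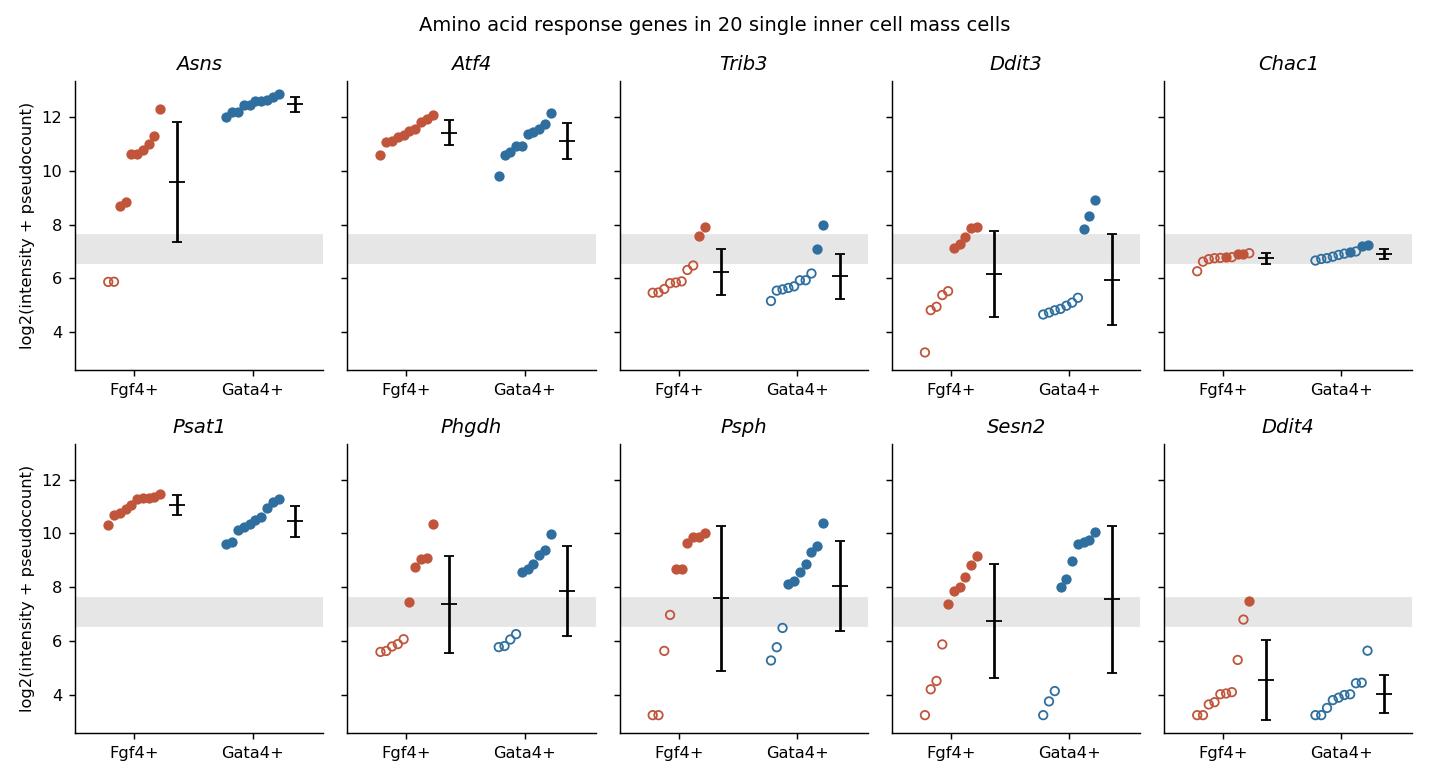
Level of each member in each cell, as log2(intensity + pseudocount), for the 10 Fgf4-positive and the 10 Gata4-positive cells. Filled points are above the floor of their own array, open points under it, the grey band spans the floors of the 20 arrays (6.57 to 7.62), and bars give the mean ± SD. Asns separates the classes except for cell 16, while the points of the other 9 genes overlap.

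Asns was the only member to differ between the classes by at least 1 log2 unit, or 2-fold. Of all measured genes, 19.5% differed by as much. Those higher in the Gata4-positive cells made up 8.0% of all measured genes and those higher in the Fgf4-positive cells 11.5%, so the other members' count of 0 is near what measured genes give. The other 8 measured members had differences (Gata4-positive minus Fgf4-positive) from -0.59 for Psat1 to 0.80 for Sesn2, with a median of 0.00495, against -0.0456 over all measured genes. Without cells 4, 8, 17 and 20, the Gata4-positive cells with the lowest mean correlation with the others, Psph (1.26) and Sesn2 (1.88) also passed 1. When values under the floor were raised, the signs of Trib3 (0.15), Ddit3 (0.22), Psph (-0.04) and Ddit4 (0.08) turned.

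None of the other 9 members reached a correlation of 0.5 with Asns over the 20 cells. Their r ranged from -0.32 to 0.34 with a median of 0.06, while 2.74% of the 9750 other measured genes had r of at least 0.5. At so low a share, 0 of 9 does not set the members apart from other genes. It describes Asns against its named pathway. Trib3, Ddit3, Chac1 and Ddit4 were under the floor in most cells, so their r rests largely on low values. The order from the highest was Psph (0.34), Chac1 (0.27), Sesn2 (0.26), Phgdh (0.16), Ddit3 (0.06), Ddit4 (-0.08), Trib3 (-0.14), Atf4 (-0.17) and Psat1 (-0.32). The ranks gave a like picture, with Spearman's rho from -0.39 for Psat1 to 0.30 for Sesn2, and 0.02 for Psph. Of the other measured genes, 928 had a higher r with Asns than Psph. All points share 1 array per cell and its amplification, and these correlations are a description with no test.

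Asns had a wide gap between cells 9 and 12 and the other 18 (2.81 log2 units, 0.402 of its range), so r was also taken without these cells. It then lay between -0.37 (Psat1) and 0.47 (Chac1), and 0 of 9 members reached 0.5, against 4.33% of measured genes. Psph fell from 0.34 to -0.19, so its positive value rests on those 2 cells. Within the 10 Fgf4-positive cells, where Asns varied most, the members' r ran from -0.11 (Trib3) to 0.45 (Psph), and 7.47% of measured genes had at least 0.5. Within the 10 Gata4-positive cells it ran from -0.30 (Ddit3) to 0.39 (Sesn2), against 7.42% of measured genes. With each gene centred on its class mean, 0 of 9 members and 1.51% of measured genes reached 0.5, and the highest member was Psph (0.37). Centring turned the signs of Psat1 (to 0.10), Atf4 (to 0.03), Ddit4 (to 0.12) and Chac1 (to -0.04). Their r over 20 cells thus includes the difference between the classes. Psat1 had r = 0.16 within the Fgf4-positive and 0.12 within the Gata4-positive cells.

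**Figure D2:**
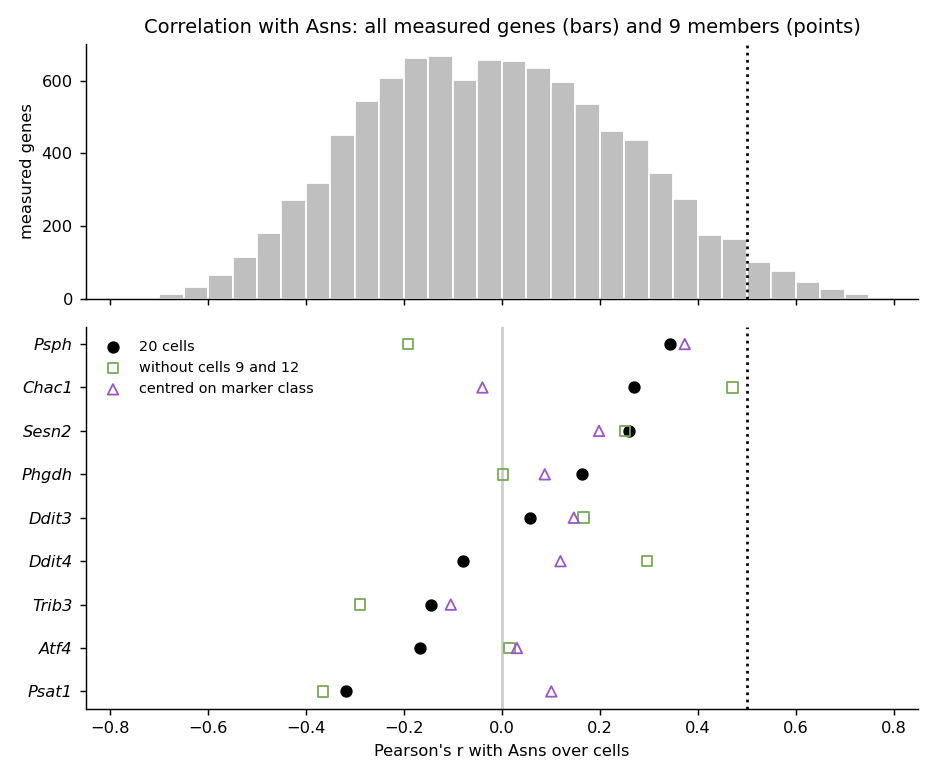
Pearson's r with Asns over cells, as a histogram of the measured genes other than Asns (upper panel, 20 cells) and as points for the 9 other members (lower panel). Circles use 20 cells, squares leave out cells 9 and 12, triangles centre each gene on its marker class, and the dotted line marks r = 0.5, which no member reaches in any of the 3 forms.

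The other members were also set against each other. Over their 36 pairs r ranged from -0.48 (Ddit3 and Sesn2) to 0.38 (Ddit3 and Ddit4) with a median of -0.06, and 0 pairs reached 0.5 in either direction. Of all pairs of measured genes 1.81% had r of at least 0.5 and 1.47% of -0.5 or lower, so this count too is near the background. Trib3 and Ddit3, the latter an activator of the former, had r = 0.35. Cells 4 and 6 were above the floor for both, as was cell 1, though Trib3 in cell 6 passed it narrowly (7.10 against 7.04). Phgdh had r = -0.43 with Atf4.

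By the ratio of its variance to the trend over mean level, Asns ranked the second of the 9751 measured genes, at 32.6. limma's variance test with Benjamini-Hochberg adjustment called 0 genes at an adjusted p of 0.05, or 0.0% (25 genes, 0.256%, at an unadjusted p under 0.05). Gene variances scattered widely around the trend, which left the test 2.17 prior degrees of freedom. A ratio of 32.6 then gave an unadjusted p of 0.0235 from limma. Over 9751 genes the test could thus hardly call any, and its 0 says nothing of the spread of a gene. For the other members the adjusted p from limma ran from 0.733 (Phgdh, Psph and Sesn2) to 1.0 (Chac1), and Ddit4 was not tested.

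The genes most alike to Asns over the 20 cells were taken from all measured genes. None of the top 10 was a member or stood on the lists of ATF4 targets. The 8 other measured members and 33 measured ATF4 targets are so few among 9750 genes that this 0 is what the background gives. The 10 highest by r were Hmox2 (0.80), Lamc1 (0.79), Rp2 (0.79), Col4a2 (0.77), Ndel1 (0.77), Lrwd1 (0.76), Kctd10 (0.75), Vmp1 (0.75), S100a4 (0.74) and Mad2l1bp (0.73). Lamc1 and Col4a2 encode basement membrane chains, laminin gamma and type IV collagen alpha. Hmox2 encodes a heme oxygenase, Vmp1 a membrane protein of autophagy, and Lrwd1 a partner of the origin recognition complex. All 10 had the higher mean in the Gata4-positive cells, by 0.48 (Hmox2) to 3.78 (Col4a2). They were picked by r with Asns, itself higher in those cells, so this direction is largely set by the choice. Without cells 9 and 12, r fell to 0.015 for Lrwd1, 0.35 for Rp2 and 0.49 for Hmox2, and was 0.74 for Kctd10, 0.72 for Vmp1 and 0.70 for Col4a2 and S100a4. The other Lamc1 probe set, above the floor in 18 cells, had r = 0.06, so the Lamc1 value rests on 1 probe set. Another Rp2 probe set, above it in 7 cells, had r = 0.012, while the other Lrwd1 probe set had r = 0.83. With each gene centred on its class, Lrwd1 (0.85), Ncoa4 (0.79), Hmox2 (0.75), Rp2 (0.73) and 2610001J05Rik (0.72) led. Without centring, Ncoa4 and 2610001J05Rik had r = 0.68 and 0.69 over 20 cells, and 0.10 and 0.08 without cells 9 and 12.

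Endoderm markers went with Asns between the classes. Of 9 measured primitive endoderm markers, 8 had r of at least 0.5, against 2.74% of measured genes. Among them were Cubn (0.72), an endocytic receptor gene, Sox17 (0.68), Gata4 (0.65) and Gata6 (0.61). The remaining one was Pdgfra (r = 0.32, rho = 0.67). Gata4 defines the class in which Asns was high. Sox17 and Cubn were above the floor in 1 Fgf4-positive cell each, so they count as measured through that class. The count of 8 therefore restates the class difference and supports nothing further. Of the 3 markers not measured, Sox7 and Dab2 were above the floor in 0 cells and Foxa2 in 2. Of 10 epiblast markers 3 had r of -0.5 or lower (Fgf4, which defines the other class, at -0.66, Klf2 at -0.58 and Nanog at -0.56), as did 2.35% of measured genes. By rho, 9 of 9 measured endoderm markers were at 0.5 or more, against 4.42% of measured genes. At -0.5 or lower by rho were 7 of 10 epiblast markers, against 6.02%. These counts restate the class difference too. The mean level of the primitive endoderm markers had r = 0.69 with Asns over 20 cells (rho = 0.82, and 0.78 by r without the 2 cells farthest from the median Asns level). Within the Fgf4-positive cells that r was 0.11 (rho = 0.0061, and 0.06 by r without the 2 farthest in that class). Within the Gata4-positive cells, where Asns spanned 12.01 to 12.85, it was 0.78 (rho = 0.73, and 0.71 without the 2 farthest in that class). Of the 4 Fgf4-positive cells with the lowest Asns, cells 2 and 12 had the highest Gata6 of their class (9.60 and 9.67) and cells 9 and 19 the lowest (3.25 and 3.55).

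**Figure D3:**
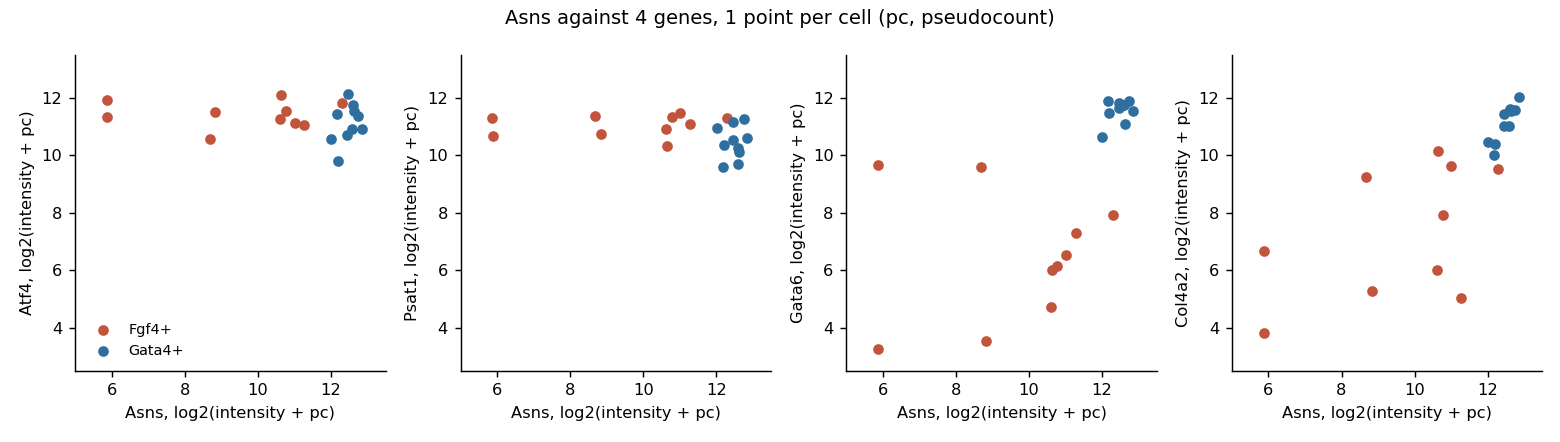
Asns (horizontal axis) against Atf4, Psat1, Gata6 and Col4a2 (vertical axes), each as log2(intensity + pseudocount, pc), with 1 point per cell. Atf4 and Psat1 stay within 9.60 to 12.13 over the whole range of Asns, while Gata6 (10.63 or more) and Col4a2 (10.02 or more) are high in every Gata4-positive cell, where Asns is at least 12.01.

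Genes of the sensors upstream of ATF4 were found in both classes. Of 8 listed kinases, phosphatase subunits and partners of eIF2, 7 had a probe set and 6 were measured, 0 of them with r of at least 0.5, a count that 2.74% over measured genes also gives for so few. The GCN2 gene Eif2ak4 was above the floor in 9 cells (r = -0.14), the PERK gene Eif2ak3 in 12 (r = -0.23) and the heme-regulated kinase gene Eif2ak1 in 11 (r = 0.18). Eif2ak3 (6.58 ± 2.19 in Gata4-positive, 8.01 ± 1.44 in Fgf4-positive cells) and Eif2ak4 (5.39 ± 2.13 and 6.41 ± 1.88) had the lower mean in the Gata4-positive cells, differences within the spread between cells that were -0.38 and -0.046 with low values raised to the floor. Ppp1r15b, a constitutive phosphatase subunit gene, was above the floor in 20 cells with r = -0.38, and was lower in the Gata4-positive cells (9.52 ± 0.68 and 10.32 ± 0.32). Ppp1r15a, its stress-induced counterpart, was above the floor in 9 cells with r = 0.05. Of the dimer partners and related factors, Atf3, Cebpb and Cebpd were above the floor in 0 cells and Atf5 in 1. Cebpg (15 cells, r = -0.22) and Nfe2l2 (18 cells, r = -0.07) were measured.

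Further ATF4 targets, listed from general knowledge of the pathway, went in both directions. Of 46 such genes 44 had a probe set and 33 were measured. Of these 2 (6.06%) had r of at least 0.5 with Asns, against 2.74% of measured genes, and 2 had r of -0.5 or lower. Their median r was -0.04, against -0.03 over measured genes. By at least 1 log2 unit 4 were higher in the Gata4-positive cells and 3 in the Fgf4-positive cells, with a median difference of -0.0529, beside shares of 8.0% and 11.5% over measured genes. This balance rests on low values: raised to the floor, 3 were higher in the Gata4-positive cells (Slc7a1, Slc7a5 and Aldh18a1) and 1 in the Fgf4-positive cells (Slc7a3), beside 3.15% and 3.28%. By Spearman's rho 3 were at 0.5 or more and 3 at -0.5 or lower, beside 4.42% and 6.02% of measured genes.

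Among 7 measured transporters 2 were higher by at least 1 in each class, beside 8.0% (Gata4-positive) and 11.5% (Fgf4-positive) of measured genes. Slc7a5, the large neutral amino acid transporter gene, had the highest r of the list (0.63, and 0.37 without cells 9 and 12). It was above the floor in 10 Gata4-positive and 5 Fgf4-positive cells (8.72 ± 0.94 and 6.45 ± 2.12). The cationic amino acid transporter genes Slc7a1 and Slc7a3 were opposite. Slc7a1 was above the floor in 8 Gata4-positive and 4 Fgf4-positive cells (r = 0.49), and Slc7a3 in 0 and 8 (r = -0.53). With low values raised to the floor their differences were 1.11 and -2.27, that of Slc7a5 was 1.16, and that of Slc1a5, a neutral amino acid transporter gene, moved from -1.02 to -0.70. Slc3a2, the partner chain of Slc7a5, was above the floor in 20 cells (10.88 ± 0.40 in Gata4-positive and 10.48 ± 0.42 in Fgf4-positive cells).

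Of 9 measured metabolic enzyme genes, 0 had r of at least 0.5, a count that 2.74% over measured genes also gives for so few. Aldh18a1, which makes the proline precursor from glutamate, was 9.98 ± 1.59 in Gata4-positive and 7.21 ± 1.29 in Fgf4-positive cells (r = 0.39, and 0.74 without cells 9 and 12). Got1, the cytosolic aspartate aminotransferase gene, had the lowest r (-0.58), with 9.72 ± 0.60 and 10.69 ± 0.43. The mitochondrial PEPCK gene Pck2 was above the floor in 3 Gata4-positive and 6 Fgf4-positive cells (r = -0.46). The one-carbon enzyme genes Shmt2 (r = 0.16) and Mthfd2 (r = 0.05) differed by -0.11 and -0.05.

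All 13 aminoacyl-tRNA synthetase genes were measured, with differences within 1 log2 unit, while 19.5% of all measured genes differed by at least 1. Nars, which charges asparagine to its transfer RNA, had the highest r (0.54, and 0.29 without cells 9 and 12) but differed little between the classes, 11.47 ± 0.33 in Gata4-positive and 11.19 ± 0.43 in Fgf4-positive cells. Wars (r = 0.40) was 11.17 ± 0.53 and 10.36 ± 0.97, and Yars (r = -0.36) was 9.56 ± 0.71 and 10.18 ± 0.42. Aars had the lowest r (-0.37). Of the 11 stress and secreted targets with a probe set, Nupr1, Fgf21, Stc2 and Vldlr were above the floor in 0 cells, and 4 were measured. Sqstm1, an autophagy receptor gene, had the highest r of these (0.39), Herpud1 was above the floor in 3 cells of each class, and Xpot had the lowest r (-0.20).

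**Figure D4:**
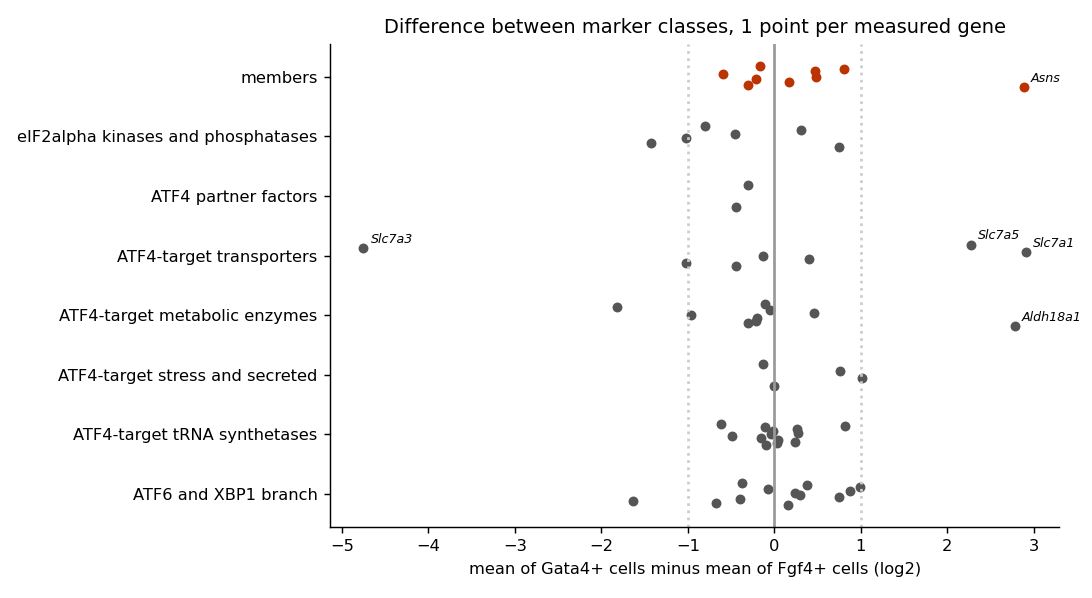
Difference of class means (Gata4-positive minus Fgf4-positive, log2) for each measured gene of the members and of 7 lists of the pathway, with dotted lines at -1 and 1 and names at 2 or more in either direction. Asns stands at 2.88 among members that lie between -0.59 and 0.80, and the lists spread to both sides of 0.

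The ATF6 and XBP1 arm of the unfolded protein response, which does not pass through ATF4, was present in both classes. All 12 genes of that list were measured and 1, the chaperone gene Hyou1, had r of at least 0.5 (0.54, and 0.34 without cells 9 and 12), against 2.74% of measured genes. By ranks the count was 4, against 4.42% of measured genes: Hsp90b1 (rho = 0.65), Manf (0.57), Hspa5 (0.56) and Sdf2l1 (0.54), without Hyou1 (0.47). Dnajb9, a co-chaperone gene, had the lowest r (-0.30) and was lower in the Gata4-positive cells (7.87 ± 2.32 and 9.51 ± 0.83). Sdf2l1 had r = 0.41, and Pdia4 was above the floor in 4 Gata4-positive and 2 Fgf4-positive cells. Hspa5, the ER chaperone BiP, was 11.95 ± 0.81 in Gata4-positive and 11.71 ± 0.39 in Fgf4-positive cells.

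Lists for other inputs to Sesn2 and Ddit4 (p53 and hypoxia) were set beside Asns, as were dissociation and heat stress genes and reference genes. Of 6 measured p53 targets 3 had r of at least 0.5, namely Sesn1 (0.62), Phlda3 (0.62) and Zmat3 (0.55), against 2.74% of measured genes, and Mdm2 had the lowest (0.05). Zmat3 and Phlda3 were above the floor in 7 and 6 Gata4-positive and in 3 and 1 Fgf4-positive cells, while the r of Sesn1 was 0.0067 without cells 9 and 12. Of 6 measured hypoxia targets 0 had r of at least 0.5, and 3 (Bnip3, Pdk1 and Ankrd37) were lower by at least 1 in the Gata4-positive cells, beside 11.5% of measured genes. Raised to the floor, their differences were -0.50, -0.48 and -0.41, and 0 passed 1. Of 7 measured dissociation and heat stress genes, Junb had r = 0.61 (0.12 without cells 9 and 12), and Egr1 was above the floor in 1 Gata4-positive and 4 Fgf4-positive cells. Of 7 measured reference genes, Pgk1, which is also a glycolytic enzyme gene, had r = 0.53 and was 10.79 ± 0.79 against 9.75 ± 0.64, while Rplp0 (13.15 ± 0.03 and 13.11 ± 0.07) was even.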

How the data were processed

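Amplified cDNA of 20 single cells was hybridised to 20 Affymetrix mouse arrays, per the labels' protocols. The authors deposited 1 linear intensity per probe set and array, between 1 and 26616. The summarisation software was not given in the sources used here. Of 45101 probe sets 64 were controls, and the rest had 1 gene (34945), several (932, left unnamed) or none (9160) in the platform annotation of GEO. Symbols were updated by Entrez identifier through RefSeq (34741 matched). Only promoter windows carry coordinates, from RefSeq.

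The 2%-trimmed array means ranged from 182.5 to 221.2, over 5% apart, so arrays were quantile normalized. Levels are log2(intensity + 8.49), with the brightest probe set per gene. Variances were tested with limma 3.58.1 (R 4.3.3, squeezeVar with the mean as trend). Other values used Python 3.11.15, pandas 2.3.3 and scipy 1.17.1. Steps were tested on simulated data. For the variance test these drew the unchanged genes at the trend, without the scatter around it of the real genes. Pairs of arrays that shared most values numbered 0.

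The members, the lists and the rule for named genes (every member, lineage checks, the genes most alike to Asns, and the extremes of each list by r and by difference) were chosen with earlier results of these data known. Other genes were named after their values were seen. Alternatives changed 1 choice at a time (normalization, pseudocount, floor, filter, probe sets, cells and the measure of correlation).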

Additional observations from a re-analysis of the deposited data

How the results depend on the processing

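Under 16 alternatives 0 of the 9 other members reached r = 0.5 with Asns, and their median r stayed between -0.06 and 0.15. The Asns difference kept its direction in 12 of 12 alternatives that gave one, from 1.96 to 3.22. Alternatives that changed only the filter on low values, or took the floor from olfactory and vomeronasal receptors, left every level as it was. They could not move a member's r or a difference, so they add nothing to these counts. The count of measured genes with r of at least 0.5 was 267. It was 470 with no filter on low values, 416 without the 2 cells farthest from the median Asns level, 431 by Spearman's rho, 147 with genes centred on their marker class, and 728 and 723 within the Fgf4-positive and the Gata4-positive cells, where fewer cells spread r more widely. Without cells 4, 8, 17 and 20 the members that differed by at least 1 numbered 3. The variance test called 0 genes in 12 of 12 alternatives, but with 1.97 to 4.72 prior degrees of freedom it could hardly call any. Differences of Atf4, Chac1, Phgdh, Psat1 and Sesn2 kept their direction in 12 of 12, those of Trib3, Ddit3 and Ddit4 in 11 and that of Psph in 10. Included here too are alternatives that could not move them, among them the other Asns probe set. Alternatives without cell 16, without cells 4, 8, 17 and 20, with a floor from olfactory and vomeronasal receptors and with the other Asns probe set were chosen after seeing the data. No paired analysis was possible because the labels give 1 group. Signal over the floor limits Trib3, Ddit3, Chac1 and Ddit4, which were under it in most cells.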
